A study of Nothobranchius furzeri with 20 samples.

Results

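The subject is how gene expression in the brain changed between 9 and 27 weeks of age in turquoise killifish (Nothobranchius furzeri) that had been given rotenone. Members were the 10 rotenone libraries of the 20 in the study, chosen by their age and treatment labels: 5 libraries of 27 weeks and 5 of 9 weeks. All came from brains of male fish of the strain MZM-04/10p, and every fish in these groups had received rotenone, dosed at 1% of its LC50 (the median lethal concentration). The comparison is therefore age within rotenone and has no untreated side. The other 10 libraries, from fish of the same ages given the solvent DMSO, entered the fit to help estimate the spread between libraries and are set beside some rotenone values, with the test of the difference where one was made. Of 26739 genes in the table, 19452 had enough counts to be tested.

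The turquoise killifish lives in seasonal ponds and is among the shortest-lived vertebrates bred in the laboratory, which makes it a model of vertebrate ageing. Rotenone blocks complex I, the enzyme through which electrons from NADH enter the mitochondrial respiratory chain. In brains of ageing vertebrates, genes of immunity and glia are commonly seen to rise and genes of cell division and the growth of new neurons to fall. The files give genes by identifiers that the reference used here matched in 0 cases. No gene below could be named or placed on the genome, and none of the marker lists for brain cell types could be checked.

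The rotenone libraries held 19433958 to 23933846 counts at 27 weeks and 20611587 to 24159773 counts at 9 weeks. A count was seen for 21483 to 21669 genes at 27 weeks and for 21504 to 21635 genes at 9 weeks. No 2 libraries of the same age agreed within sampling noise, with a chi-square per degree of freedom of 7.80 to 32.8 over 20 pairs. Whether each library is a different fish is not stated in the labels. The p-values below therefore describe variation among libraries, which may be technical.

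Nearly 1 tested gene in 3 differed between the ages, most of them by little. The background for all counts below is that 31.1% of 19452 tested genes were called (edgeR quasi-likelihood test, Benjamini-Hochberg adjusted p below 0.05), with 12.9% higher at 27 weeks (2506 genes) and 18.2% lower (3547 genes). Genes that rose did so by a median of 0.44 on the log2 scale, with the middle 50% of them between 0.30 and 0.68. Genes that fell changed by a median of -0.39, with the middle 50% at sizes of 0.27 to 0.58. The median over all tested genes was 0.01, and 49.2% of them had a lower estimate at 27 weeks, so the excess of falls lay among the called genes. A fit of the 10 rotenone libraries alone called 3094 rises and 3482 falls, a smaller excess. In bulk tissue, fewer cells of a type and less RNA per cell cannot be told apart. The labels give no batch, and one shared by all fish of an age cannot be told apart from age.

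A test against a minimum size separated large changes from small ones measured precisely. The TREAT test in edgeR asks whether a change is larger than a stated fold and not only different from none. A gene that it does not call may still have changed by that fold, so its counts are not totals of large changes. It called 584 genes that rose and 1049 that fell by more than 1.2-fold, 8.4% of those tested. Past 1.5-fold it called 47 that rose and 164 that fell, 1.08%. Past 2-fold it called 3 that rose and 37 that fell, 0.206%. By TREAT, falls thus made up a growing share of calls as the demanded size grew. By the estimate alone there was no such steady growth. Past 1.2-fold lay 2074 of the called genes that rose and 2745 of those that fell, and past 1.5-fold 819 and 871. Past 2-fold lay 277 and 325, and past 4-fold 41 and 66. Without replicate 2 of 27 weeks, 137 genes were called past 1.5-fold in place of 211, and DESeq2 called 152 and limma-voom 114.

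**Figure D1:**
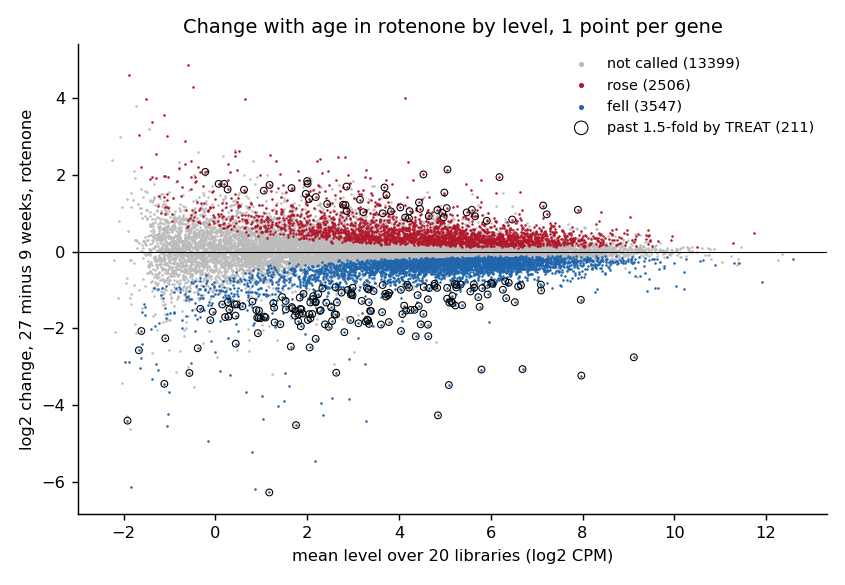
Log2 change between 27 and 9 weeks in rotenone for each tested gene against its mean level in log2 CPM over the 20 libraries. Red points rose (2506 genes), blue points fell (3547 genes), grey points were not called, and circles mark the 211 genes past 1.5-fold by TREAT, most of them below 0.

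Libraries of both ages were often fully apart for single genes. Among called genes, 68.5% of those that rose and 72.8% of those that fell had no overlap between the 5 libraries of either age, where 24.3% of all tested genes had none. In all 10 fits that left out 1 rotenone library, 1578 of the 2506 genes that rose and 2663 of the 3547 that fell were called again. For genes with an estimate under 1.2-fold, 42.6% of those that rose and 52.2% of those that fell were called in every such fit. No gene with at least 10 counts in all 5 libraries of 1 age was at 0 in all 5 of the other, in either direction.

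A group of well expressed genes with large changes was picked out by rule. It asked for a call past 1.5-fold by TREAT, a mean of at least 5 log2 CPM, no overlap between the ages and a call in every fit without 1 library. Of all tested genes, 11 that rose and 37 that fell met it. Those that rose changed by 0.81 to 2.15 on the log2 scale (median 1.09) and those that fell by -3.48 to -0.77 (median -1.03). In DMSO fish the medians were 0.69 and -0.65, a difference not tested for these groups. The genes were chosen for large changes in rotenone, so these medians cannot show whether the age effects differ. For the difference itself, 0 of the 11 and 1 of the 37 were called, where 0.0206% of all tested genes were. In DMSO fish 10 of the 11 and 35 of the 37 were called in the same direction. The background there was 9.64% of tested genes called higher at 27 weeks and 13.8% called lower.

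The largest rise in this group was that of Nfu_g_1_017453, a gene of 4502 bases. Its level was 14.9, 18.2, 17.8, 18.6 and 17.1 CPM in the libraries of 9 weeks and 72.3, 105, 65.0, 73.3 and 67.1 CPM in those of 27 weeks (replicates 1 to 5). Every library of 27 weeks stood far above every library of 9 weeks, with replicate 2 of 27 weeks highest. The mean went from 17.3 ± 1.45 to 76.6 ± 16.4 CPM (SD, n = 5 each), which is 4.43-fold. The log2 change was 2.15 with an SE of 0.18 (edgeR quasi-likelihood, adjusted p = 1.69e-07). In DMSO fish it rose from 20.6 ± 3.15 to 47.2 ± 14.3 CPM. The log2 rise was larger in rotenone by 0.95 ± 0.24, which did not pass the test over all genes (edgeR adjusted p = 0.158).

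Nfu_g_1_003740, of 5993 bases, rose almost as far. Young libraries held 35.6, 35.3, 47.7, 36.7 and 41.9 CPM, and old ones 143, 174, 150.2, 156 and 138 CPM. The libraries of either age lay close together, and the lowest of 27 weeks was well above the highest of 9 weeks. The mean rose from 39.4 ± 5.30 to 152 ± 14.1 CPM (SD, n = 5 each), which is 3.86-fold. The log2 change was 1.95 with an SE of 0.20 (edgeR quasi-likelihood, adjusted p = 1.36e-06).

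Among the 37 genes of this group that fell, Nfu_g_1_013298, of 9137 bases, had the largest estimate and a wide spread in young fish. Young libraries held 30.2, 129, 87.6, 482 and 61.0 CPM, and old ones 12.5, 12.2, 13.9, 8.77 and 23.7 CPM. Every young library was above every old one, and the young ones were spread far wider than the old. The log2 change was -3.48 with an SE of 0.78 (edgeR quasi-likelihood, adjusted p = 0.00256), and -2.44 was the smallest among the fits without 1 library. Young DMSO fish showed the same spread, from 15.1 to 255 CPM.

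Nfu_g_1_007654, a short gene of 816 bases in the top 10% of genes by mean CPM, also fell. Its level was 1042, 1492, 615, 1136 and 584 CPM at 9 weeks against 35.0, 51.7, 177, 105 and 151 CPM at 27 weeks. Both ages spread widely without touching. The mean fell from 974 ± 381 to 104 ± 61.4 CPM (SD, n = 5 each), 9.37-fold, and the log2 change was -3.23 with an SE of 0.44 (edgeR quasi-likelihood, adjusted p = 3.36e-05). In DMSO fish the mean fell from 417 ± 180 to 136 ± 41.6 CPM, and the difference of the log2 changes, -1.61 ± 0.58, did not pass (edgeR adjusted p = 0.358).

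**Figure D2:**
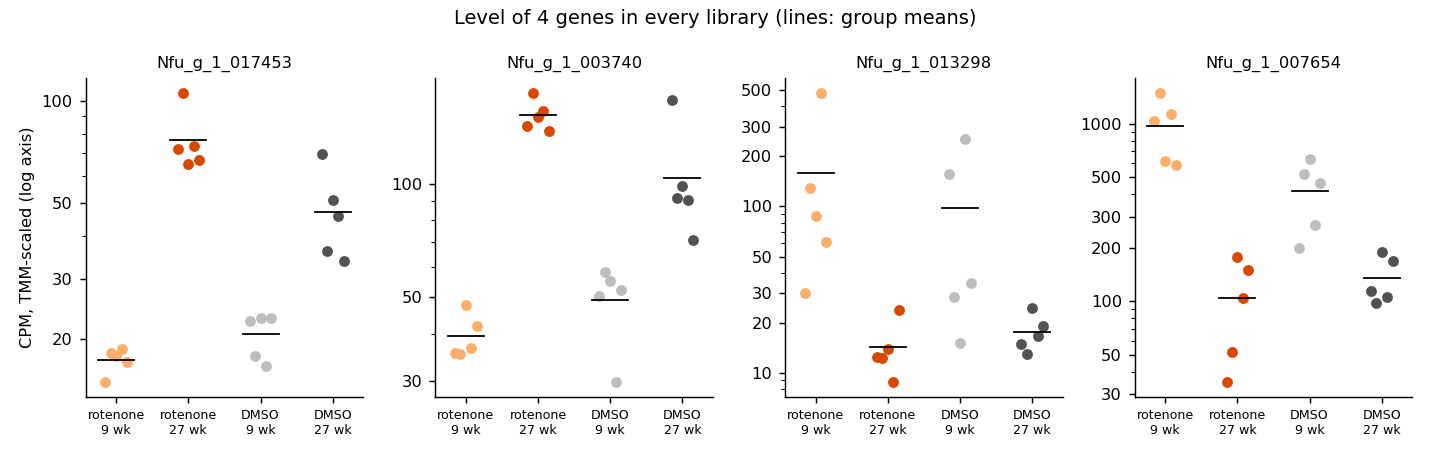
Level in every library of 2 genes that rose (Nfu_g_1_017453, Nfu_g_1_003740) and 2 that fell (Nfu_g_1_013298, Nfu_g_1_007654), in TMM-scaled CPM on a log axis, 5 points and a line for the mean per group. In rotenone the ages do not overlap for any of the 4 genes, which the rule that chose them demanded. The young libraries of Nfu_g_1_013298 run from 30.2 to 482 CPM.

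How often genes were called, and in which direction, moved with their level. Tested genes were divided into 10 equal bins of mean CPM, a share of the library's counts that is not corrected for gene length. In the lowest bin, under 1.21 CPM, 10.6% of genes were called, and in the ninth, from 64.1 to 116 CPM, 43.08%. The median standard error of the log2 change shrank over the same bins from 0.37 to 0.07. Its part in the lower share of calls among rare genes was not tested. Called rare genes had changed by a median of 1.16 on the log2 scale where they rose and -1.19 where they fell. In the highest bin these medians were 0.32 and -0.28. A larger error lets only larger changes be called, so medians of called genes also depend on the error of the bin. The standard deviation of log2 changes, error included, went from 0.81 to 0.30.

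Rises and falls were nearly balanced among genes of low level and leaned to falls among genes of high level. With genes in 3 equal groups, or tertiles, of mean CPM, in the lower one 560 rose and 624 fell, in the middle tertile 944 and 1286, and in the upper tertile 1002 and 1637. As a share of calls, rises came to 47.3%, 42.3% and 38.0%. Ranked by RPKM, the level per length of gene, the slope was steeper: 51.3% of calls rose in the lower tertile, 46.2% in the middle and 32.4% in the upper. Of the 10% of genes with the highest RPKM, 12.6% rose and 32.3% fell. Upper minus lower by CPM, the share differed by -9.33 percentage points. It differed by -3.91 points between the extreme bins of 10. Without replicates 1 and 3 of 9 weeks, a pair picked after an earlier look at these data, it differed by -3.56 points. With 1 value per library, the median log2 CPM of the upper tertile exceeded that of the lower by 5.06 ± 0.05 at 27 weeks. At 9 weeks it did so by 5.13 ± 0.08 (SD, n = 5 each). That difference between the ages did not pass (exact permutation test over libraries, p = 0.119, adjusted over 9 measures 0.153). Among DMSO fish, rises were 62.3% of calls in the lower tertile by CPM, 44.3% in the middle and 28.6% in the upper. Whether these shares differ between the treatments was not tested. The library measure in DMSO was 5.04 ± 0.08 at 27 weeks and 5.18 ± 0.10 at 9 weeks. Its age effect differed by 0.067 between the treatments, which did not pass (exact permutation of treatment within ages, p = 0.352, adjusted 0.468).

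Large changes were found at all levels, and by the estimate alone most often at low ones. Called genes with an estimate past 2-fold numbered 395 in the lower tertile by mean CPM, 153 in the middle and 54 in the upper. The median standard error of the log2 change was 0.26, 0.10 and 0.07 in these tertiles. Its part in those counts was not tested. Of the 47 genes that rose past 1.5-fold by TREAT, 15 were in the lower tertile, 20 in the middle and 12 in the upper. Of the 164 that fell, 74, 53 and 37 were. By TREAT, falls were thus most frequent in the lower tertile and rises in the middle one.

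**Figure D3:**
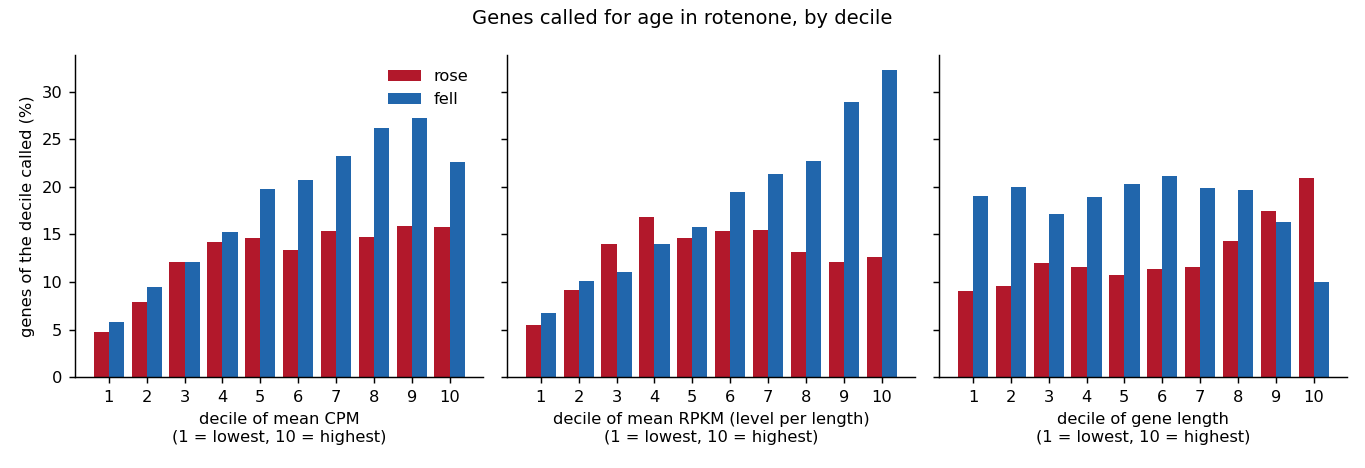
Percentage of genes that rose (red) or fell (blue) with age in rotenone, in 10 equal bins of mean CPM, of mean RPKM and of gene length. Falls outnumber rises in the upper bins of both levels, whereas among the longest 10% of genes 21.0% rose and 10.0% fell.

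Long genes were the only length class in which rises outnumbered falls. Lengths are those of the gene models behind the deposited RPKM, worked out by dividing counts by RPKM. Whether they include introns is not stated, so they are not to be read as lengths on the genome. Of the genes called in the longest tertile 1104 rose and 1020 fell, against 671 and 1209 in the shortest tertile and 731 and 1318 in the middle tertile. Rises made up 52.0%, 35.7% and 35.7% of calls. The share was level over most of the range and turned at the long end. In 10 equal bins of length it lay between 32.4% and 42.2% up to the eighth bin, reached 51.7% in the ninth, from 5287 to 6995 bases, and 67.7% in the longest. In that last bin 408 genes rose and 195 fell, with a median log2 change over all its genes of 0.10, against -0.03 in the shortest bin.

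The shift at the long end was thus small for a single gene. Long genes were called about as often as others (31.0% in the longest bin and 28.12% in the shortest), and of the 47 genes that rose past 1.5-fold by TREAT, 8 were in the shortest tertile, 20 in the middle and 19 in the longest. Of the 164 that fell past it, 53, 68 and 43 were, so the middle tertile held the most in both directions. Across all 19452 genes the rank correlation of log2 change and length was 0.07, a description of genes that share libraries. In DMSO fish, 56.8% of calls rose in the longest bin and 31.8% in the shortest.

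Length and level are tied, since a longer gene gives more counts (rank correlation across genes of 0.38), so length was also examined within tertiles of level. Within the upper tertile by mean CPM, rises were 25.9% of calls among the shortest genes, 32.8% among those of middle length and 59.5% among the longest. Within the middle tertile they were 32.5%, 39.3% and 56.2%. Within the lower tertile the shares were 47.9%, 46.7% and 47.3%, without such a slope. With level taken per length, as RPKM, the longest tertile of genes had the highest share of rises within each level: 59.4% in the lower, 53.1% in the middle and 44.99% in the upper tertile. The shortest tertile of genes had 49.8%, 45.8% and 27.4%. For the middle and upper levels this gap was narrower than by mean CPM. Within the upper tertile by mean CPM, median RPKM was 46.2 among the shortest genes and 12.1 among the longest. The slope there thus mixes length with level per length. Genes whose length is a multiple of 3, as in models that hold coding sequence alone, had 53.7% among long genes and 36.0% among short. All others had 51.0% and 34.7%. The multiples of 3 were 5001 of the short and 2379 of the long genes, and the others 1483 and 4105. Models of other kinds can have such lengths too, so this split does not hold the type of model fixed.

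**Figure D4:**
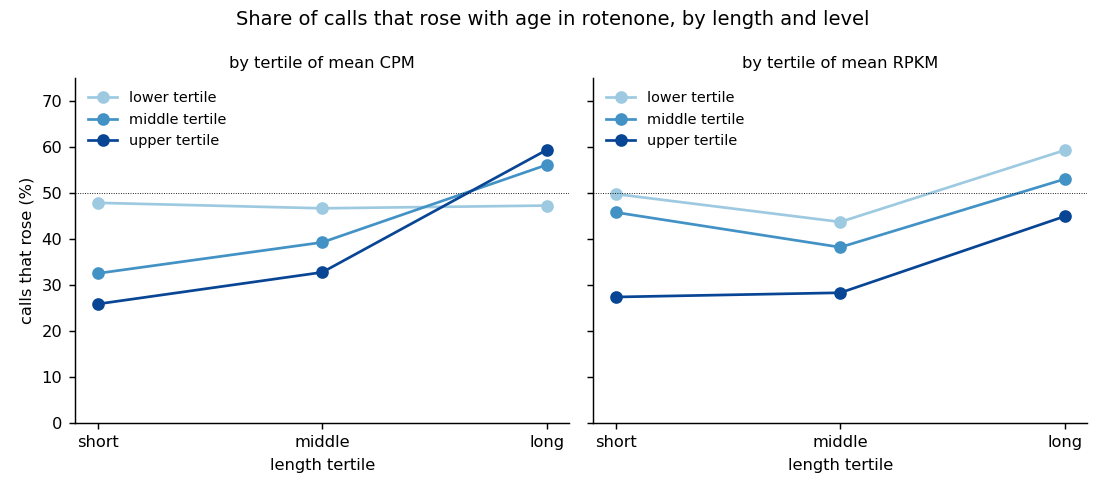
Percentage of calls that rose with age in rotenone by length class, within tertiles of mean CPM (left, genes split by length inside each tertile) and of mean RPKM (right, length classes of all tested genes). The dotted line is at 50%, and the upper tertile by CPM climbs from 25.9% among short genes to 59.5% among long ones. The upper tertile by RPKM goes from 27.4% to 44.99%.

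A shift toward long genes was also seen in whole libraries, where each library gives 1 value and no gene needs to be called. The longest tertile of genes took 53.2, 51.6, 52.5, 52.8 and 51.7% of counts at 27 weeks and 49.6, 51.3, 49.9, 51.3 and 51.5% at 9 weeks. Every library of 27 weeks lay above every library of 9 weeks, though the closest of either age differed by about 0.1 of a percentage point. The means were 52.4 ± 0.69% and 50.7 ± 0.90% (SD, n = 5 each; exact permutation test, two-sided, p = 0.00794, the smallest that 5 against 5 libraries allow, and 0.0238 adjusted over 9 measures). Genes of middle length went from 28.7 ± 0.52% to 27.7 ± 0.26% (exact permutation adjusted p = 0.0238), and short genes from 20.6 ± 0.39% to 19.9 ± 0.46%, which did not pass (exact permutation adjusted p = 0.0595). The shares of long, middle and short genes add up to all counts of tested genes. A rise for long genes is therefore met by a fall in the others, and these are not separate results. Without replicate 1, 3 or 4 of 27 weeks or replicate 1 of 9 weeks, neither long nor middle genes passed, with an adjusted exact permutation p of up to 0.0714. The differences in those fits were 1.37 to 1.63 points for long genes and -0.917 to -0.788 for middle ones.

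The same shift was not established as different from that in DMSO fish. There the longest tertile took 51.0 ± 1.55% of counts at 27 weeks and 50.4 ± 1.27% at 9 weeks (SD, n = 5 each), and the ages overlapped (exact permutation p = 0.500). The rise in rotenone exceeded it by 1.07 percentage points (exact permutation of treatment within ages, two-sided, p = 0.329, adjusted 0.468). The difference between the median log2 CPM of long and short genes, which weighs all genes alike, was 2.33 ± 0.02 at 27 weeks and 2.29 ± 0.03 at 9 weeks in rotenone (exact permutation adjusted p = 0.0571) and 2.30 ± 0.04 and 2.24 ± 0.02 in DMSO.

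The most abundant genes took a smaller share of counts in old rotenone fish. The 100 genes with the highest mean CPM held 12.5, 13.7, 13.3, 13.2 and 13.3% of counts at 27 weeks and 15.1, 13.9, 14.2, 13.9 and 13.6% at 9 weeks. The ages overlapped by a single pair of libraries. The means were 13.2 ± 0.43% and 14.1 ± 0.58% (SD, n = 5 each; exact permutation p = 0.0159, adjusted 0.0357). Without replicate 1, 3, 4 or 5 of 27 weeks or replicate 1 or 3 of 9 weeks, the adjusted exact permutation p reached up to 0.0714. Libraries with a low share here tended to have a high share in long genes, so these may not be separate results. The DMSO means were 13.8 ± 0.60% at 27 weeks and 14.1 ± 0.91% at 9 weeks (exact permutation p = 0.460). The difference between the treatments in this age effect, -0.571 points, did not pass (exact permutation of treatment within ages, p = 0.339, adjusted 0.468). Genes with at least 1 count numbered about the same at both ages in rotenone, on average 21575 ± 77.7 and 21581 ± 51.5 (exact permutation p = 0.913). Thinned to the depth of the smallest library, the numbers were 21491 ± 24.2 and 21471 ± 78.5 (exact permutation p = 0.603). The difference of 20.3 genes was 1.37 without replicate 1, 8.18 without replicate 3 and 51.2 without replicate 2 of 9 weeks, and 12.6 without replicate 4 of 27 weeks.

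Old rotenone libraries were more alike than young ones. The distance of each library from the mean of the others in its group, as a root mean square over genes on the log2 scale, was 0.412, 0.380, 0.365, 0.377 and 0.348 at 27 weeks and 0.473, 0.434, 0.432, 0.437 and 0.468 at 9 weeks. No library of 27 weeks was as far from its group as the nearest of 9 weeks. The means were 0.376 ± 0.023 and 0.449 ± 0.020 (SD, n = 5 each; exact permutation test with distances held fixed, p = 0.00794, adjusted 0.0238). Without replicate 1, 3 or 4 of 27 weeks or replicate 1 of 9 weeks the adjusted exact permutation p reached up to 0.0714. Gene by gene, the median standard deviation over 5 libraries was 0.14 at 27 weeks and 0.18 at 9 weeks, and it was larger at 27 weeks in 34.5% of genes. In the upper tertile by level it was 0.08 and 0.12.

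In DMSO fish the distances did not part by age, with means of 0.482 ± 0.090 at 27 weeks and 0.474 ± 0.065 at 9 weeks (exact permutation p = 0.857). The difference between the treatments in this age effect, -0.081, did not pass (exact permutation of treatment within ages, two-sided, p = 0.194, adjusted 0.468). Distances within a group share libraries and are not independent, so their p-values are approximate and may be too small.

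**Figure D5:**
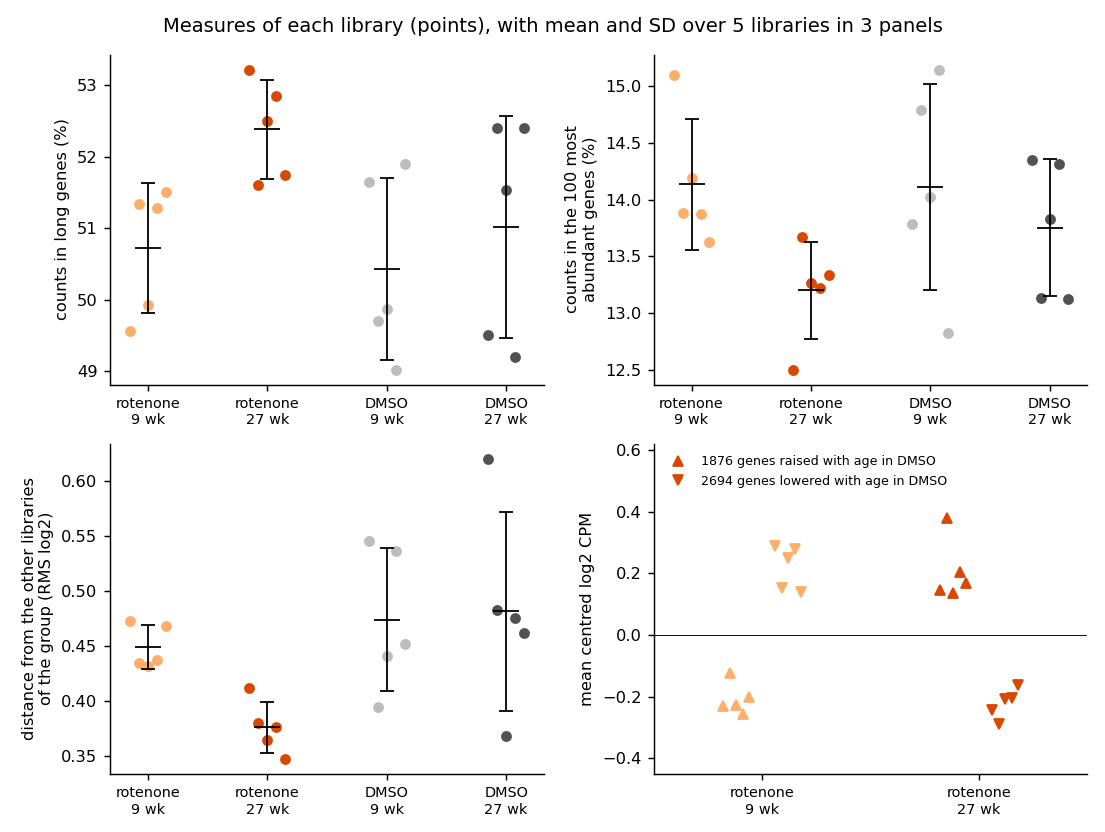
Points are single libraries, with the mean and SD over 5 libraries in the panels for share of counts in long genes, share of counts in the 100 most abundant genes and distance from the other libraries of the group (none of these axes starts at 0). The last panel gives, for rotenone libraries, the mean centred log2 CPM of genes called for age in DMSO, and all 5 libraries of 27 weeks lie apart from all 5 of 9 weeks.

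Genes that age had moved in DMSO fish were used to place each rotenone library. They were chosen by the contrast between DMSO groups, which takes no mean from rotenone libraries, although both contrasts share the spread estimated over all 20 libraries. In DMSO 23.5% of tested genes were called, 9.64% higher at 27 weeks (1876 genes) and 13.8% lower (2694 genes). Centred on the mean of the 10 rotenone libraries, the genes raised in DMSO averaged 0.15, 0.38, 0.14, 0.21 and 0.17 on the log2 scale at 27 weeks and -0.23, -0.12, -0.23, -0.26 and -0.20 at 9 weeks. Those lowered in DMSO averaged -0.24, -0.29, -0.21, -0.21 and -0.16 at 27 weeks and 0.29, 0.15, 0.25, 0.28 and 0.14 at 9 weeks. Each rotenone library fell on the side of its age for both lists.

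Few genes could be shown to age differently with rotenone. The test of the difference between both age effects called 4 genes, 0.0206% of those tested, each with a lower log2 change in rotenone. Their log2 changes with age were -1.52, -1.34, -0.47 and -1.88 in rotenone and -0.54, -0.44, 0.08 and -0.96 in DMSO. The first 3 differences had an edgeR adjusted p = 0.0315 and the last an adjusted p = 0.0472. At an unadjusted p below 0.05 there were 1947 of the 19452 tested genes. With no difference in any gene, a share of about 0.05 would on average be below it, and the share seen was larger. Genes share libraries and can move together, so that share can lie well away from 0.05 without any difference. Nothing is concluded from it here. DESeq2 called 150. In edgeR, 0 were called without replicate 2 or 3 of 27 weeks or replicate 1 or 2 of 9 weeks, 1 without replicate 4 of 27 weeks, 8 without replicate 4 and 7 without replicate 5 of 9 weeks. Of the 211 genes past 1.5-fold in rotenone, 209 had the same direction in DMSO, and 191 were called there in it. Of all tested genes, 9.64% were called higher at 27 weeks in DMSO and 13.8% lower, 23.5% in either direction. The share of all tested genes with the same direction in both treatments was not worked out, so the 209 has no background here. For the difference, 3 of the 211 were called, against 4 of all 19452 tested. The 211 were chosen for large changes in rotenone, so their count cannot show whether the age effects differ.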

How the data were processed

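Brain RNA of 20 libraries was profiled in 4 groups of 5. The tools named in the submitters' processing notes are featureCounts 1.4.6-p4, STAR 2.4.1d and bcl2fastq 1.8.4, with no roles. Neither genome build, annotation nor strand setting is given in the sources used here, so reads of overlapping, antisense or near-identical genes could not be told apart.

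The deposited counts are whole numbers per gene, not normalized. In the RPKM that the authors deposited, 99.997% of 431241 values above 0 were recovered within 0.0011 from the counts with library totals recycled down the columns. With each library's own total and the same lengths, 7.51% were. Those lengths had been worked out with the recycled totals, so the second share is not an even comparison. Since recycled totals recovered nearly all values, RPKM served for gene lengths and, recomputed, for levels per length. Lengths had a median of 2669.5 bases, and 52.2% were multiples of 3.

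Genes were kept by filterByExpr (99.96% of counts) and fitted in edgeR 4.0.16 with TMM (factors 0.980 to 1.02), a robust quasi-likelihood model with 1 mean per group and all 20 libraries. TREAT used 1.5-fold, with 1.2-fold and 2-fold beside it. Log2 CPM used a prior count of 2. The script was tested on simulated data. There TREAT at 1.5-fold called 44.8% of 67 genes changed 2-fold and 83.3% of 66 genes changed 4-fold. Library measures were compared by exact permutation and adjusted over 9 measures. Bins of genes are descriptions with no test. Identifiers printed are the 2 largest rises and 2 largest falls that met the rule given with them. Comparisons, bins and rules were chosen with earlier results of these data known. Replicates were numbered in accession order and pair no libraries. Alternatives were other scalings, filters and tools (DESeq2 1.42.0, limma 3.58.1), the 10 rotenone libraries alone, and leaving out libraries.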

Additional observations from a re-analysis of the deposited data

Results flagged for a closer look

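Within groups of 5 libraries, a library was singled out where its gap to the nearest other exceeded 0.71 of the group's range. This held in 4 of 32 groups of values examined, where about 1.6 would be singled out among independent normal values. Replicate 2 of 27 weeks stood at 105 CPM for Nfu_g_1_017453, with the next library at 73.3 CPM, and at 0.38 for the mean centred log2 CPM of genes raised with age in DMSO, with the next at 0.21. Replicate 4 of 9 weeks stood at 482 CPM for Nfu_g_1_013298, with the next at 129 CPM. In replicate 2 of 9 weeks the median log2 CPM of the upper tertile of genes by level exceeded that of the lower tertile by 4.99, with the next library at 5.13.

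Differences between the age effects in rotenone and DMSO were called for 4 genes in the test of the difference itself. They came to -0.97, -0.90, -0.55 and -0.92 on the log2 scale (edgeR adjusted p = 0.0315 for the first 3 and 0.0472 for the last), with mean levels of 20.7, 38.4, 53.1 and 11.5 CPM.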

How the results depend on the processing

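Over 21 alternatives, no gene called in an alternative had been called in the opposite direction. The cause of each change below was not tested. The deposited RPKM, with mixed library totals, gave 3706 calls (1159 rises, 31.3% of calls, where other scalings gave 43.2 to 45.8% and the main one 41.4%) and 92 past 1.5-fold. Past 1.5-fold there were 114 with limma-voom and 106 with recomputed RPKM. The 10 rotenone libraries alone gave 3094 rises and 3482 falls, with rises at 47.0% of calls. That share was 54.1% in the lower tertile by CPM and 43.6% in the upper. Without replicates 1 and 3 of 9 weeks there were 1543 rises, 4067 calls (3839 of the 6053 among them) and 128 past 1.5-fold. Leaving out 1 library at a time gave 4989 to 6052 calls, 1957 to 2509 rises, 3032 to 3543 falls, 137 to 217 past 1.5-fold and 0 to 8 for the difference of the age effects, for which DESeq2 called 150.

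The share of rises, upper minus lower tertile by CPM, was -9.33 points, and -13.1 to -6.82 without 1 library, -14.3 with deposited RPKM, -13.3 with limma-voom, -3.56 without replicates 1 and 3 of 9 weeks, -3.91 between extreme deciles and -18.9 by RPKM tertiles (chosen after seeing the data). Within short genes it was -24.8 and within genes of middle length -13.4. Long minus short was 16.3 points, and 15.1 to 19.01 without 1 library, 11.3 with deposited RPKM, 26.9 between extreme quintiles and 35.3 between extreme deciles. Within tertiles by CPM it was -0.59 in the lower, 23.6 in the middle and 33.6 in the upper, and within tertiles by RPKM (chosen after seeing the data) 9.56 in the lower and 7.26 in the middle.

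Without 1 library at a time, the age difference (27 minus 9 weeks) was 1.37 to 1.85 points for counts in long genes, -1.05 to -0.788 for middle ones, -0.850 to -0.576 for short ones and -1.06 to -0.692 for the 100 most abundant. It was 0.0315 to 0.0524 for long minus short median log2 CPM, -0.107 to -0.0533 for upper minus lower, -0.0922 to -0.0506 for the distance between libraries and -28.8 to 17.7 for genes with a count (9.70 and 17.7 without replicates 1 and 3 of 27 weeks, 8.15 and 4.65 without replicates 2 and 4 of 9 weeks). At equal depth it was 1.37 to 51.2 genes. With 5 against 4 libraries, adjusted p ran up to 0.0714 for long genes, for middle genes and for the distance, over 0.05 in 4 of 10 fits each, and for the 100 most abundant in 6. All 4 printed genes were called in every alternative. For the 10 fits without 1 library this was fixed in advance, since the rule that chose the genes demanded it. A level of 1 count in the smallest library is 0.0515 CPM, which limits the rarest genes.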
